A study of Homo sapiens with 3 samples.

Results

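The genes described here are 41 glycolytic, lactate and hypoxia-responsive genes, out of 60609 genes counted by RNA sequencing in NCI-H209, an established line of human small cell lung cancer. They were taken by name from a list that covers glucose uptake, the enzymes from hexokinase to pyruvate kinase, lactate and pyruvate handling, the HIF transcription factors with their hydroxylases, and known hypoxia-responsive genes. The libraries were sh490 and sh1362, each from cells with a different lentiviral hairpin against the Src-family kinase YES1, and shGFP, from cells with a control hairpin against GFP. All cells carried a doxycycline-inducible, puromycin-selectable hairpin vector and received doxycycline at 1 µg/mL every other day, also those with the control hairpin. There was 1 library per hairpin, from polyadenylated RNA, and the labels give neither the harvest time nor separate cultures. The labels call the YES1 hairpin libraries by number alone, and they were taken as YES1 hairpins because the protocol names no target besides YES1 and GFP.

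Glycolysis splits glucose into pyruvate in the cytosol, and lactate dehydrogenase turns pyruvate into lactate, which leaves through monocarboxylate transporters. When oxygen is scarce, the prolyl hydroxylases encoded by the EGLN genes no longer mark the HIF alpha subunits for destruction. The stabilised alpha subunit pairs with ARNT, binds hypoxia response elements and raises transcription of most glycolytic genes, of PDK1, which keeps pyruvate out of the mitochondrion, and of genes for angiogenesis, pH control, mitophagy and collagen hydroxylation. Small cell lung cancer is known for fast growth and high glucose use.

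Total counts were 7791747 in sh490, 7421552 in sh1362 and 4899006 in shGFP, so that 3 reads, the limit that a count of 0 allows, equal 0.380, 0.409 and 0.614 CPM (read counts scaled to library size by the TMM method). YES1, the targeted gene, stood at 6.89% (5.82 to 8.10) of its shGFP level in sh490 and at 9.81% (8.47 to 11.3) in sh1362 (edgeR log2 fold -3.60, standard error 0.30, adjusted p 0.00761), the brackets being exact 95% counting intervals. The neuroendocrine markers were all detected and summed to 4139, 5537 and 3649 CPM in sh490, sh1362 and shGFP. Of 13 red cell markers 8 had a read, and they summed to 20.4 and 24.8 CPM with the hairpins against 730 CPM in shGFP, nearly all from globins, while AHSP, CA1, EPB42 and HEMGN were among those at 0 in every library. Of 10 white cell markers 7 had a read, with sums of 2.41 and 3.54 CPM against 9.41 CPM, and CD3E and ITGAM were among those at 0. The 8 stromal and endothelial markers summed to 10.8 and 8.99 CPM against 10.6 CPM, with DCN at 0. Mitochondrially encoded genes held 5.50% and 7.78% of reads in sh490 and sh1362, against 5.47% in shGFP. With library sizes taken without mitochondrial genes and red cell markers, the members' median log2 folds were -0.14 in sh490 and -0.21 in sh1362, as with them. The part of the other marker differences in the values below was not tested.

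No glycolysis or hypoxia gene passed the test for YES1 silencing, and most levels lay within 1.5-fold of the control. The members summed to 0.910% of all reads in sh490 and 0.940% in sh1362, against 1.04% in shGFP. In sh490 11 of the 35 members with a mean of at least 5 CPM lay above their shGFP level, where 52.8% of all 11635 such genes did, and the members' median log2 fold was -0.14 against 0.02 over all genes. In sh1362 15 of 35 lay above it, where 51.1% of all genes did, with medians of -0.21 for the members and 0.01 for all genes. The middle 50% of the members' log2 folds ran over -0.33 to 0.07 in sh490 and -0.44 to 0.22 in sh1362, and those of all genes over -0.20 to 0.26 and -0.33 to 0.33. Both comparisons use the same shGFP library, so for any gene the ratios in sh490 and sh1362 are not independent of each other. In bulk RNA, fewer cells that make a transcript and less of it per cell cannot be told apart.

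**Figure D1:**
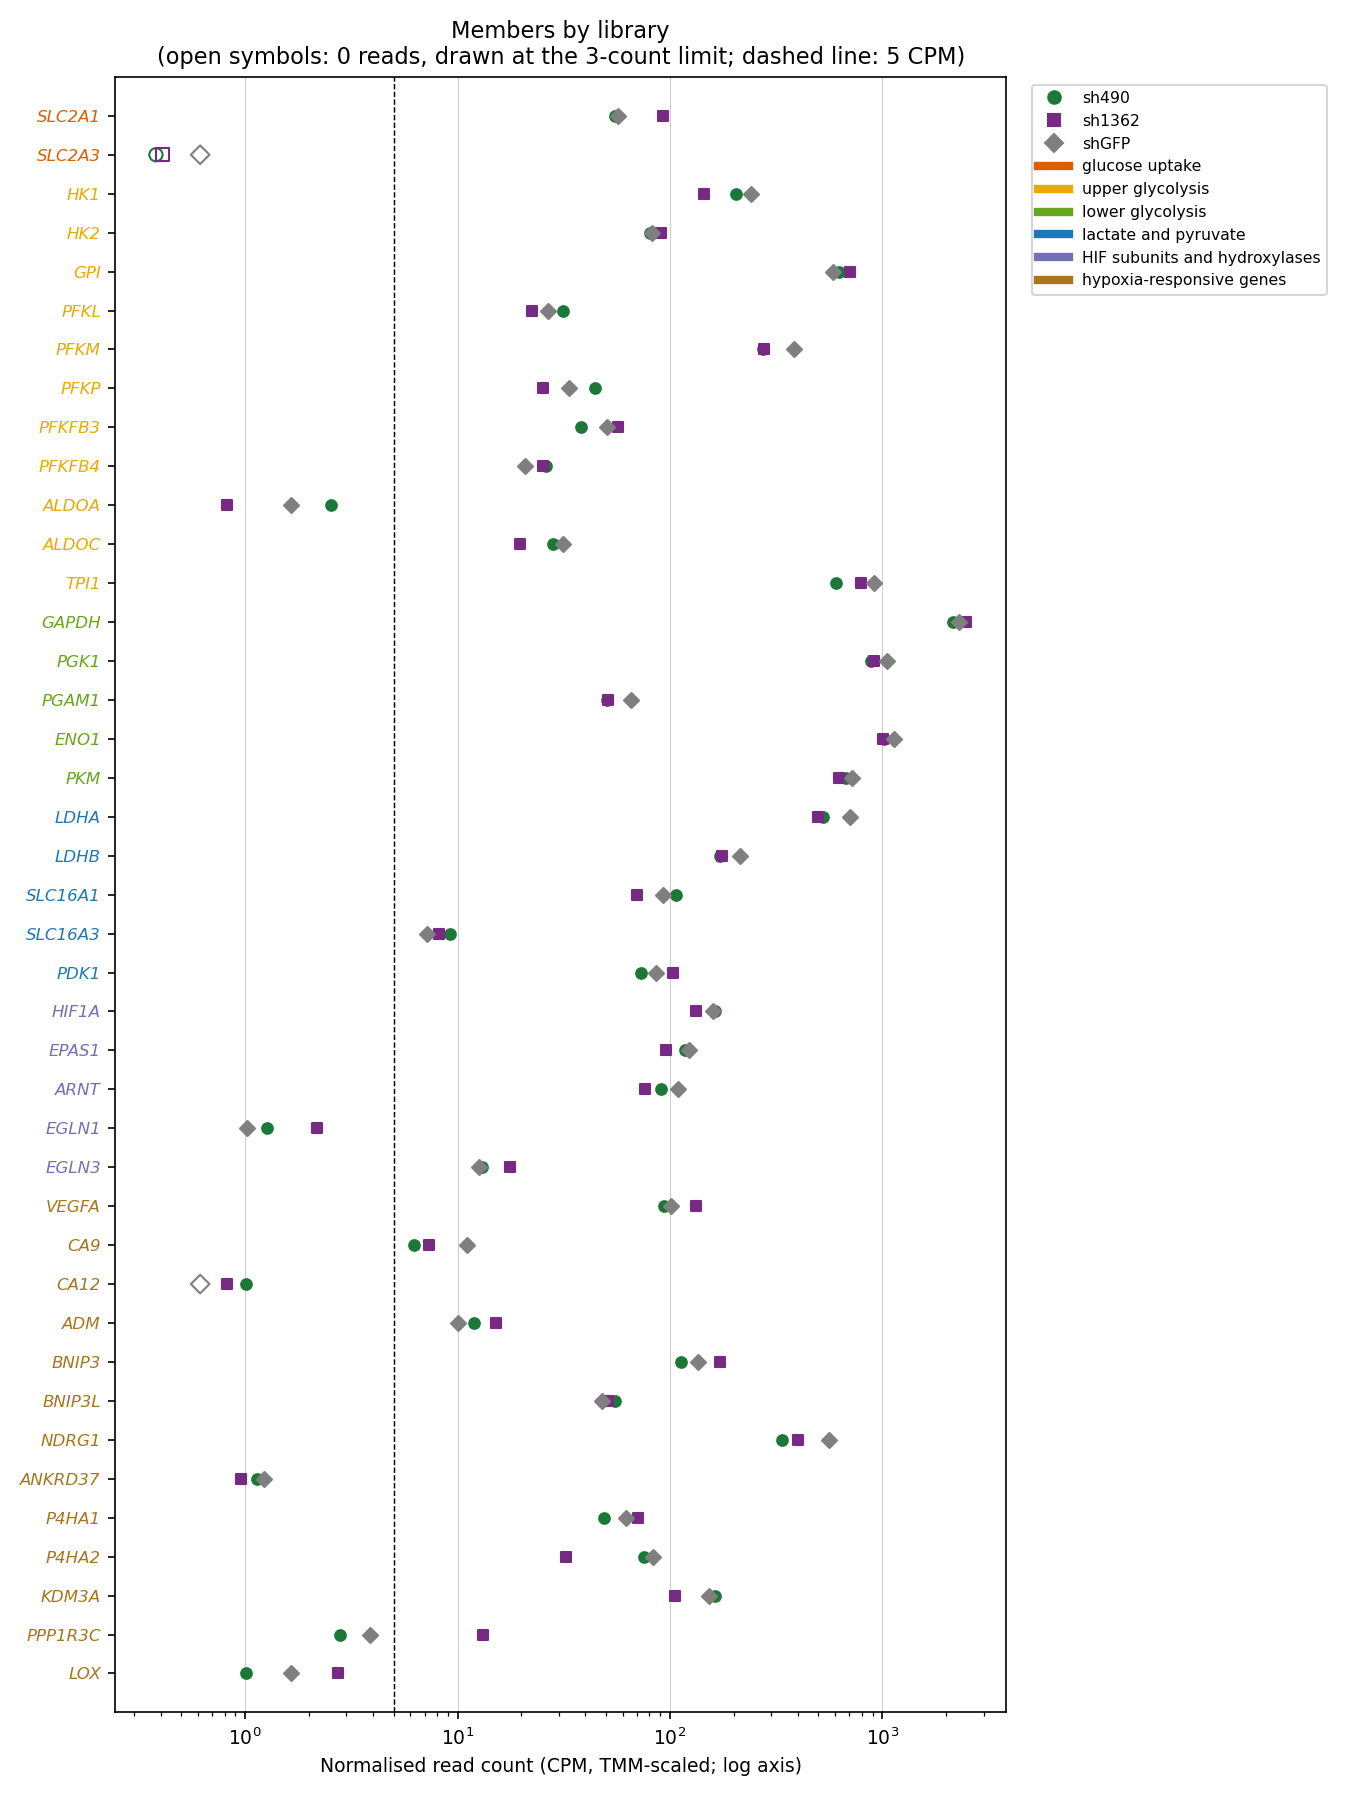
Normalised read count (CPM, log axis) of all 41 members, grouped by role, with 1 symbol per library for sh490, sh1362 and shGFP. GAPDH is highest at 2290.2 CPM in shGFP, SLC2A3 has no read, and ALDOA, EGLN1, CA12, ANKRD37 and LOX also average under 5 CPM.

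The test was edgeR's quasi-likelihood F test across 15708 genes, with both YES1 hairpins as 1 group against shGFP. It tested 38 members and called 0 higher and 0 lower (p adjusted after Benjamini and Hochberg, threshold 0.05), where 0.0% of all genes were called higher and 0.0255% lower. The latter were 4 genes, YES1 and 3 of the red cell markers. DESeq2 and limma-voom also called 0 members. At an unadjusted p under 0.05 there were 0 members higher and 1 lower, NDRG1, against 2.27% and 2.08% of all genes. These p-values rest on the spread between the hairpin libraries, borrowed largely over all tested genes (edgeR median prior degrees of freedom 7.16, beside 1 residual). That spread may be technical or belong to a hairpin, which cannot be told apart, and shGFP as a single library was assumed to have the same spread. A p above the threshold does not show that a level did not differ.

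By size alone, 0 of 35 members stood 2-fold or more above shGFP in sh490 and 0 stood 2-fold or more below, where 1.5% and 1.31% of all genes did. In sh1362 PPP1R3C stood 2-fold or more above shGFP and P4HA2 2-fold or more below, 1 of 35 each way, where 3.56% and 5.6% of all genes did. PPP1R3C, with 2.79 CPM in sh490 and 3.89 CPM in shGFP, reached the mean of 5 CPM only through its 13.2 CPM in sh1362. It thus entered these counts through the value that is called high. At 1.5-fold, sh490 had 0 members above (7.66% of all genes) and 3 below (5.81%), namely CA9, NDRG1 and TPI1. At the same limit sh1362 had 2 above (12.2%), PPP1R3C and SLC2A1, and 3 below (14.6%), P4HA2, HK1 and ALDOC. These counts are small and lie near or below the background shares, so they show nothing particular to the members. The other 6 members averaged under 5 CPM and were left out of these counts.

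**Figure D2:**
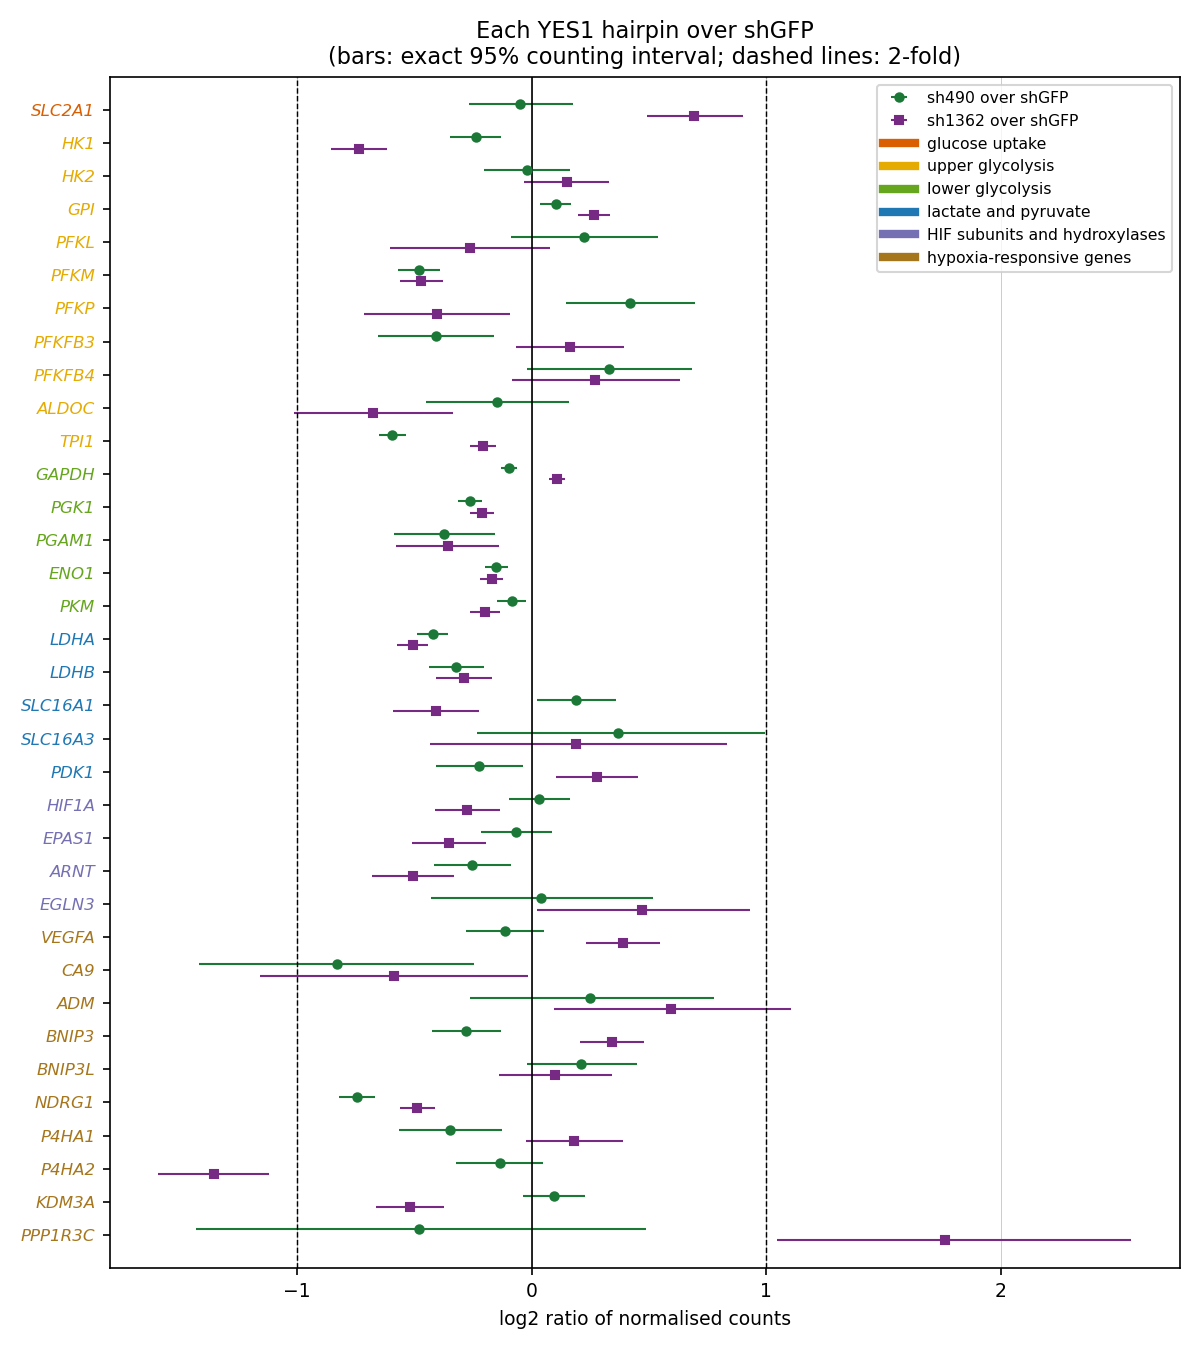
Ratio of normalised counts of each YES1 hairpin over shGFP on a log2 scale for the 35 members with a mean of 5 CPM or more, with exact 95% counting intervals that cover counting error only. PPP1R3C and P4HA2 in sh1362 lie beyond the dashed 2-fold lines, and every sh490 value lies between them.

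Of the 2 members for glucose uptake, only SLC2A1, which encodes the transporter GLUT1, had reads. Uptake itself was not measured. SLC2A1 had 55.2 and 92.3 CPM in sh490 and sh1362, against 57.1 CPM in shGFP. The sh490 and shGFP libraries were nearly level, and sh1362 stood apart at 162% (140.5 to 187) of shGFP. It did not pass (edgeR log2 fold 0.35, standard error 0.37, adjusted p 0.986). SLC2A3, the neuronal-type transporter GLUT3, had 0 reads in all libraries, as did its near-identical neighbour SLC2A14, and reads aligning to both would have been left out of the counts.

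Among hexokinases, which trap glucose in the cell, HK1 was the most abundant in each library and HK2, the inducible form, came next. Levels of different genes are set side by side in TPM, which divides reads by exonic length. That length adds the exons of all transcripts and includes bases shared with other genes, so such comparisons are approximate. HK1 had 126 and 81.8 TPM in sh490 and sh1362, against 147 TPM in shGFP, and HK2 had 51.6 and 53.2 TPM against 51.7 TPM. HK2 was thus nearly level in the libraries, and its share of hexokinase TPM was 28.9% in sh490, 38.5% in sh1362 and 25.8% in shGFP. HK1 stood at 84.8% (78.6 to 91.5) of the normalised shGFP count in sh490 and at 60.03% (55.2 to 65.3) in sh1362 (edgeR log2 fold -0.49, standard error 0.30, adjusted p 0.986).

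Transcripts of phosphofructokinase, the main control point of the pathway, were mostly of the PFKM type. PFKM had 147 and 136 TPM in sh490 and sh1362, against 203 TPM in shGFP, while PFKP had 31.1 and 16.1 TPM against 22.96 TPM and PFKL 13.6 and 8.87 TPM against 11.5 TPM. Both hairpin libraries were alike for PFKM, at 71.7% (67.4 to 76.3) and 72.2% (67.7 to 76.9) of the normalised shGFP count, and PFKM did not pass (edgeR log2 fold -0.50, standard error 0.26, adjusted p 0.986). PFKP lay on opposite sides of shGFP, at 134% (111 to 162) in sh490 and 75.5% (60.9 to 93.8) in sh1362. PFKFB3 and PFKFB4, which set the level of the activator fructose 2,6-bisphosphate, had 24.2 and 32.9 TPM against 31.7 TPM, and 16.6 and 14.6 TPM against 13.1 TPM.

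**Figure D3:**
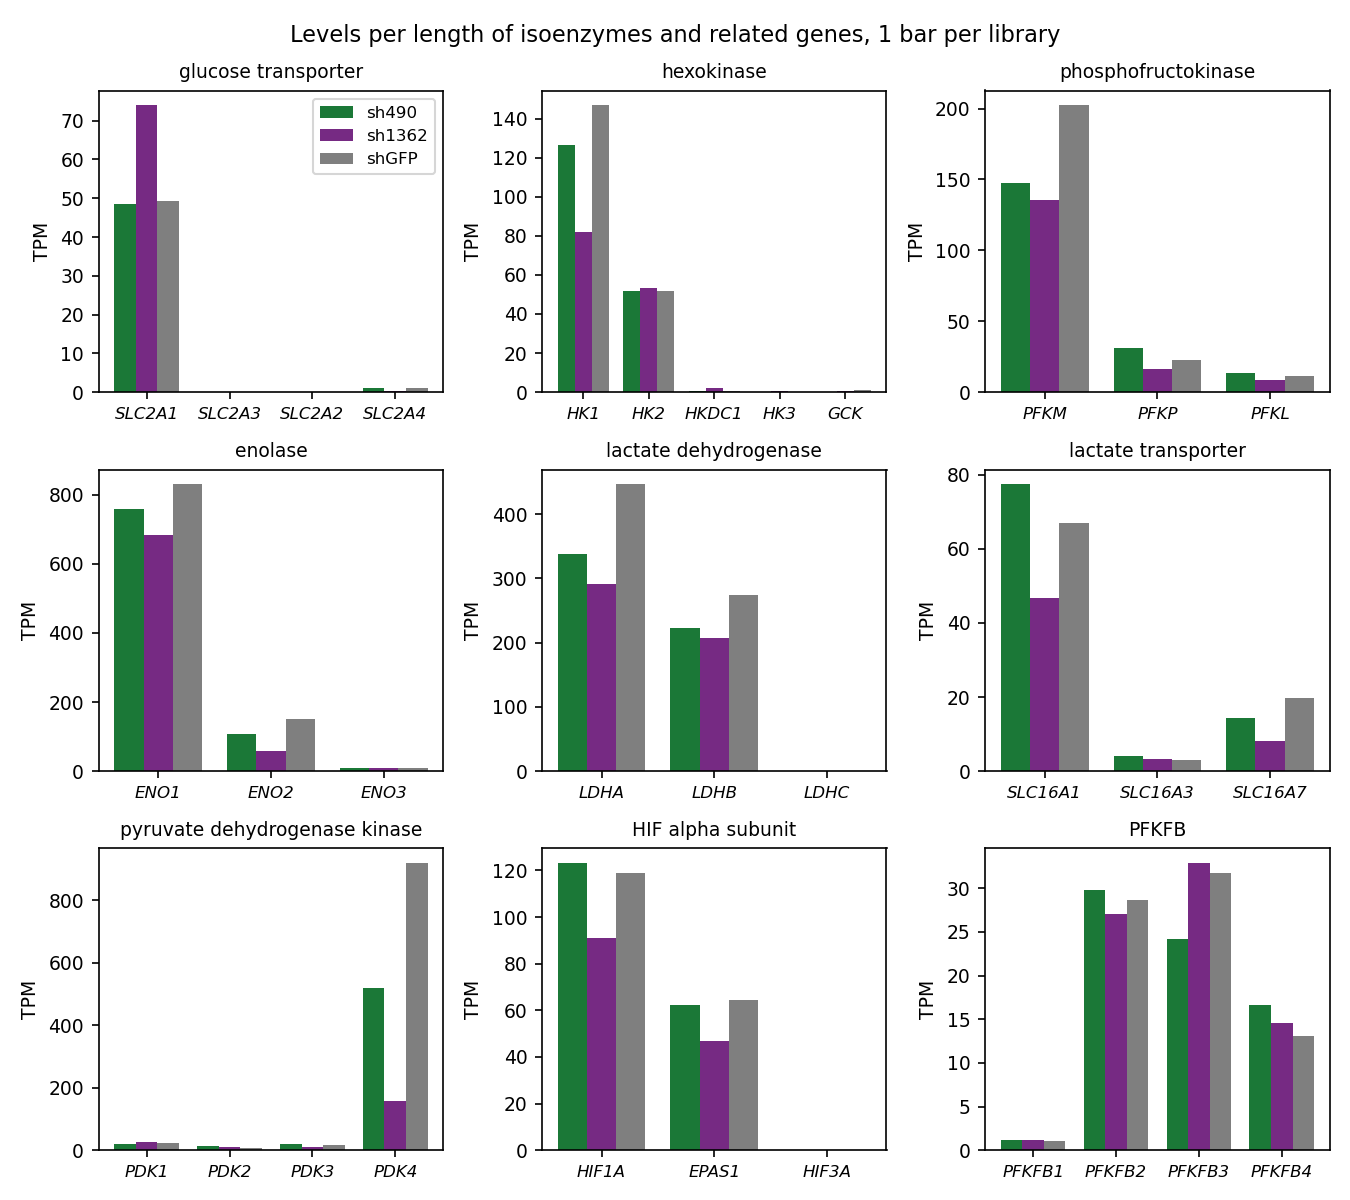
Levels per exonic length (TPM) of isoenzymes and related genes, with 1 bar per library in the order sh490, sh1362 and shGFP. HK1, PFKM, ENO1, LDHA, SLC16A1, PDK4 and HIF1A are the highest of their families in every library. PDK4 runs from 158 TPM in sh1362 to 919 TPM in shGFP. The order of LDHA and LDHB is uncertain, since LDHB shares 33.4% of its exonic bases with another gene.

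The remaining upper enzymes were GPI, the aldolases and TPI1. GPI, which isomerises glucose 6-phosphate, had 627 and 702 CPM in sh490 and sh1362 against 584 CPM in shGFP. TPI1, triosephosphate isomerase, had 605 and 791 CPM against 913 CPM, which is 66.3% (63.6 to 69.03) and 86.5% (83.2 to 90.01) of shGFP (edgeR log2 fold -0.41, standard error 0.28, adjusted p 0.986). ALDOC, the brain-type aldolase, had 28.3 and 19.6 CPM against 31.3 CPM.

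ALDOA, the ubiquitous aldolase, was counted at only 20 and 6 reads in sh490 and sh1362, against 8 reads in shGFP. Of its 3829 exonic bases (ENSG00000149925.20, chromosome 16, 30064164 to 30070457 on the plus strand of GRCh38) 54.7% also lay in exons of other annotated genes. The largest share, 1657 bases, belonged to ENSG00000285043.1, which itself had 3, 0 and 1 reads in sh490, sh1362 and shGFP. Reads that overlap exons of several genes were left out by the counting, so these counts miss any such read of ALDOA. EGLN1, the main oxygen sensor of the HIF pathway, had 55.8% of its exonic bases shared and 10 and 16 reads against 5 reads in shGFP. ANKRD37 shared 40.3% with UFSP2 and had 9 and 7 reads against 6 reads. CA9 shared 36.1% with ARHGEF39, and LDHB 33.4% with an unnamed gene. How many reads were lost in this way was not tested, so the levels of these genes are uncertain.

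**Figure D4:**
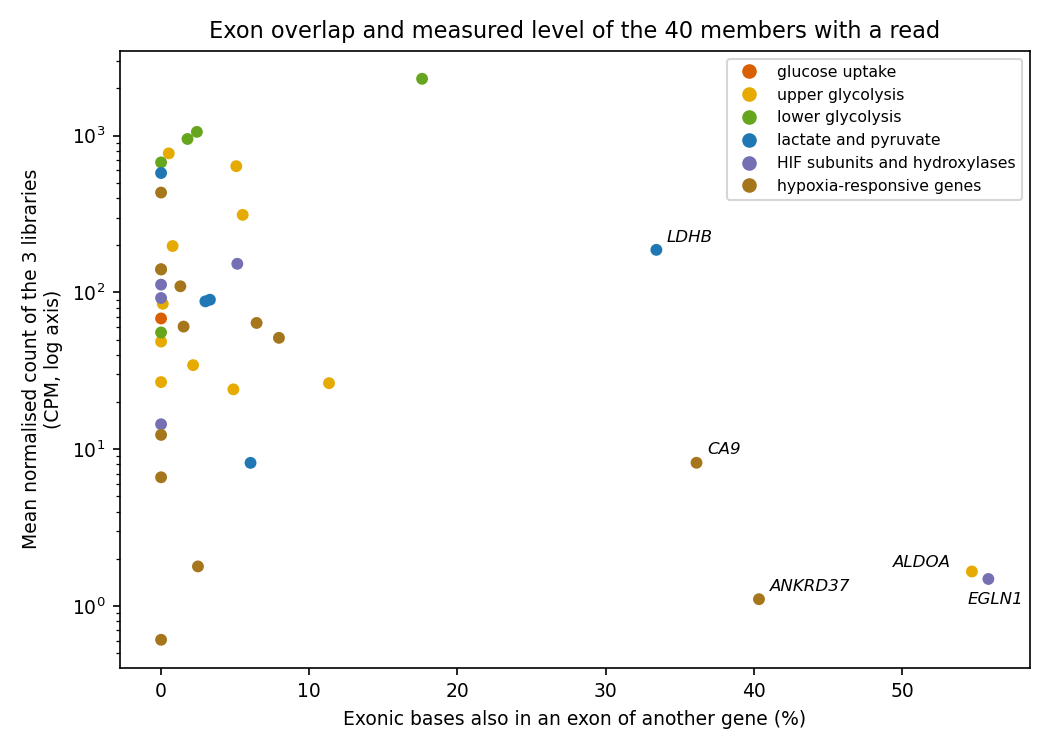
Share of each member's exonic bases that also lie in an exon of another gene (x, %) against its mean normalised count over the 3 libraries (y, CPM, log axis), for the 40 members with a read. ALDOA and EGLN1, at 54.7% and 55.8% shared, and ANKRD37, at 40.3%, lie under 5 CPM, while LDHB, at 33.4%, does not.

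The lower enzymes carry triose phosphates to pyruvate through the steps that yield ATP. GAPDH had 2143 and 2468 CPM in sh490 and sh1362 against 2290.2 CPM in shGFP (edgeR log2 fold -0.01, standard error 0.28, adjusted p 0.998). That fold was 0.014 with total counts in place of TMM, so its sign depends on the scaling. PGK1, phosphoglycerate kinase, had 881 and 914 CPM against 1058 CPM. ENO1, the main enolase, had 1023 and 1008 CPM against 1135 CPM. PKM, pyruvate kinase, had 678 and 626 CPM against 719 CPM. For PGK1, ENO1 and PKM both hairpin libraries thus lay under shGFP, at 83.3% to 94.3% of it.

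PGAM1, phosphoglycerate mutase, had 50.4 and 50.9 CPM against 65.3 CPM. It is 1 of several members with many pseudogenes: 65 genes are named as pseudogenes of GAPDH, 44 of BNIP3 and 13 of PGAM1. These held 96, 34 and 8 reads in sh490, 115, 27 and 6 in sh1362, and 61, 14 and 6 in shGFP. Reads aligning equally well to gene and pseudogene would have been left out, so the levels of these genes are uncertain.

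Transcripts of lactate dehydrogenase came from LDHA, which favours lactate, and LDHB, with no read for LDHC. LDHA (ENSG00000134333.14, chromosome 11, 18394560 to 18408425 on the plus strand) had 4164 reads in sh490 and 3648 in sh1362, against 3453 in shGFP. These equal 528 and 497 CPM against 707 CPM. Both hairpin libraries were low and similar, at 74.7% (71.4 to 78.1) and 70.3% (67.1 to 73.7) of shGFP, and LDHA did not pass (edgeR log2 fold -0.49, standard error 0.26, adjusted p 0.986). LDHB stood at 80.03% and 81.8% of shGFP. The LDHA share of the family's TPM was 60.3% in sh490, 58.4% in sh1362 and 61.99% in shGFP. This share is uncertain, since LDHB shared 33.4% of its exonic bases with another gene.

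Of the lactate transporters, SLC16A1, which encodes MCT1, had 106 and 70.1 CPM in sh490 and sh1362, against 93.1 CPM in shGFP. It lay above the control with sh490 and under it with sh1362. SLC16A3, the hypoxia-inducible exporter MCT4, was low, with 9.25 and 8.17 CPM against 7.16 CPM. PDK1, the HIF-responsive pyruvate dehydrogenase kinase, had 73.5 and 104 CPM against 85.7 CPM, again on opposite sides of shGFP.

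HIF1A and EPAS1, which encode the oxygen-labile subunits HIF-1 alpha and HIF-2 alpha, were both detected. HIF1A had 123 and 91.2 TPM in sh490 and sh1362 against 119 TPM in shGFP, and EPAS1 had 62.3 and 46.7 TPM against 64.4 TPM. For each the sh1362 library was the lowest, at 82.7% (75.2 to 90.98) of the normalised shGFP count for HIF1A and 78.3% (70.1 to 87.5) for EPAS1. ARNT, their shared partner, had 91.2 and 76.5 CPM against 109 CPM. EGLN3, a hydroxylase that HIF itself induces, had 13.05 and 17.6 CPM against 12.7 CPM. The edgeR log2 folds were -0.13 for HIF1A, -0.22 for EPAS1, -0.40 for ARNT and 0.25 for EGLN3, with standard errors of 0.28, 0.28, 0.28 and 0.42, and each adjusted p was 0.986.

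The hypoxia-responsive genes did not lie on the same side of the control. NDRG1, a stress-responsive gene of the N-myc downstream-regulated family (ENSG00000104419.14, chromosome 8, 133237171 to 133302022 on the minus strand), had 2650 and 2945 reads in sh490 and sh1362, against 2749 reads in the shallower shGFP library. These equal 336 and 401 CPM against 562 CPM. Both hairpin libraries were low, at 59.7% (56.6 to 62.98) and 71.3% (67.7 to 75.1) of shGFP. NDRG1 did not pass (edgeR log2 fold -0.63, standard error 0.27, adjusted p 0.986, unadjusted p 0.0446), and its adjusted p ran from 0.886 to 0.9998 over the fits run. CA9, the tumour-associated carbonic anhydrase, also had less with both hairpins, with 49 and 54 reads against 54 reads, or 6.21 and 7.35 CPM against 11.05 CPM (edgeR log2 fold -0.73, standard error 0.47, adjusted p 0.986).

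VEGFA, the angiogenic growth factor, had 93.9 and 133 CPM in sh490 and sh1362, against 101 CPM in shGFP. ADM, the vasodilator peptide adrenomedullin, had 11.9 and 15.1 CPM against 10.03 CPM. BNIP3, a mitophagy receptor, had 112 and 173 CPM against 136 CPM, while its relative BNIP3L, which also serves red cell maturation, had 55.2 and 51.1 CPM against 47.7 CPM. In VEGFA sh490 was within counting error of shGFP at 92.5% (82.4 to 104) and sh1362 stood at 131% (117 to 146). BNIP3 lay on opposite sides, at 82.4% (74.4 to 91.2) and 127% (115 to 139). KDM3A, a histone demethylase, was lowest in sh1362, with 163 and 106 CPM against 152 CPM. CA12, another carbonic anhydrase, had 8 and 6 reads against 0 reads, and the lower counting limits of the ratio were 106% in sh490 and 78.4% in sh1362, so the sh1362 library was not separable from shGFP at this depth. LOX, a collagen cross-linking oxidase, had 8 and 20 reads against 8 reads.

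Among members with a mean of 5 CPM or more, P4HA2 and PPP1R3C were those past 2-fold from shGFP in sh1362, and neither was in sh490. P4HA2 and its paralogue P4HA1 encode catalytic subunits of the prolyl hydroxylase of collagen, and PPP1R3C encodes a subunit that directs protein phosphatase 1 to glycogen. P4HA2 (ENSG00000072682.18, chromosome 5, 132191838 to 132295315 on the minus strand) had 598 reads in sh490 and 239 in sh1362, against 407 in shGFP, or 75.8 and 32.5 CPM against 83.3 CPM. It stood at 90.97% (80.1 to 103) of shGFP in sh490 and at 39.1% (33.2 to 45.96) in sh1362, while P4HA1 stood at 78.6% and 113%. PPP1R3C (ENSG00000119938.9, chromosome 10, 91628442 to 91633071 on the minus strand) had 22 reads in sh490 and 97 in sh1362, against 19 in shGFP, or 2.79 and 13.2 CPM against 3.89 CPM. It stood at 71.7% (37.03 to 140.0) of shGFP in sh490 and at 339.8% (206 to 589) in sh1362. The hairpin libraries lay far apart for both genes, and neither passed (P4HA2, edgeR log2 fold -0.64, standard error 0.47, adjusted p 0.986, and PPP1R3C, edgeR log2 fold 1.01, standard error 0.93, adjusted p 0.986).

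The promoters of these genes are shown because the hypoxia response element is the sequence that HIF binds in its targets, with CA9, a classical target, beside them. RefSeq windows (GRCh38.p14) covered 36 of the 41 members, and the 250 bases before the first listed start of each were searched on both strands for the core words ACGTG and GCGTG, which read CACGT and CACGC on the other strand. Of these 36 windows 23 held a word, 63.9%, and of 27305 windows over all genes 43.1% did. ACGTG was in 38.9% of the members' windows and 18.7% of all, and GCGTG in 36.1% and 31.9%. The list was drawn up to hold known hypoxia-responsive genes, so these shares describe how it was chosen and test nothing. Each sequence runs 5′ to 3′ in the direction of the gene, with the words found in capitals.
CA9, chr9:35673678-35673927, plus strand: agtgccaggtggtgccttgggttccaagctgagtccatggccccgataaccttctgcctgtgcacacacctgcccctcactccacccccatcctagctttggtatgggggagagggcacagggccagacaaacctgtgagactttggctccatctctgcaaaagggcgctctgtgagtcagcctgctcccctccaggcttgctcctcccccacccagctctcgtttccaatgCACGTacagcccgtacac
PPP1R3C, chr10:91633072-91633321, minus strand: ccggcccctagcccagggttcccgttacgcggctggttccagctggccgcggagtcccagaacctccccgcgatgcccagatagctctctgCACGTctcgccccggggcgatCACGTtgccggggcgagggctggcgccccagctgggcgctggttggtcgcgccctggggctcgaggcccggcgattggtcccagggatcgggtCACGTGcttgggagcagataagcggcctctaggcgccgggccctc
P4HA1, chr10:73096867-73097116, minus strand: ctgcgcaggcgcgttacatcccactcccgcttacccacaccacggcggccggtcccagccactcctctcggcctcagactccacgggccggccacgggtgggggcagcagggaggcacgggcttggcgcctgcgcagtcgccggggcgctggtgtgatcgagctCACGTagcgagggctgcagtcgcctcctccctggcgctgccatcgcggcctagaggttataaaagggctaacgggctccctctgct
P4HA2, chr5:132227092-132227341, minus strand: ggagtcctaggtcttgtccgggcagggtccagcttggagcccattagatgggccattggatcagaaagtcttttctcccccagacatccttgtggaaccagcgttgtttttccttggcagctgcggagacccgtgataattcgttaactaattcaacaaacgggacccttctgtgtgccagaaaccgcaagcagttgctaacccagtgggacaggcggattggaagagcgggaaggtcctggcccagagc
The CA9 window held CACGT beginning 18 bases before the start, and the P4HA1 window held it 86 bases before. The PPP1R3C window held CACGT at 159, 138 and 45 bases before the start, and ACGTG at 44 bases, which overlaps the word at 45. No word was found in the P4HA2 window. The RefSeq starts of CA9, P4HA1 and P4HA2 lie inside the genes as counted, so that the whole P4HA2 window and the word of P4HA1 fall within the annotated gene, while the word of CA9 lies before it. A match describes letters and does not show a bound site.

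The hairpins were also compared with each other, with folds that leave out the counts of shGFP and its globin reads. The shGFP library still entered the TMM scaling and the mean of 5 CPM by which genes were taken. In sh1362 1 of 35 members stood 2-fold or more above sh490, PPP1R3C at a log2 fold of 2.13, where 2.03% of all genes did. Likewise 1 stood 2-fold or more below, P4HA2 at -1.21, where 3.88% of all genes did. PPP1R3C had reached the mean of 5 CPM only through sh1362. At 1.5-fold 3 members lay above (8.21% of all genes) and 4 below (12.1%). The members' median was 0.01, beside -0.01 over all genes, and 19 of 35 lay above 0, where 48.5% of all genes did. PFKP at -0.82 and SLC2A1 at 0.74 were next, followed by BNIP3 at 0.62, KDM3A at -0.61 and SLC16A1 at -0.60. There was 1 library per hairpin, so no test was made, and the larger mitochondrial share of sh1362 given above stands beside these values.

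**Figure D5:**
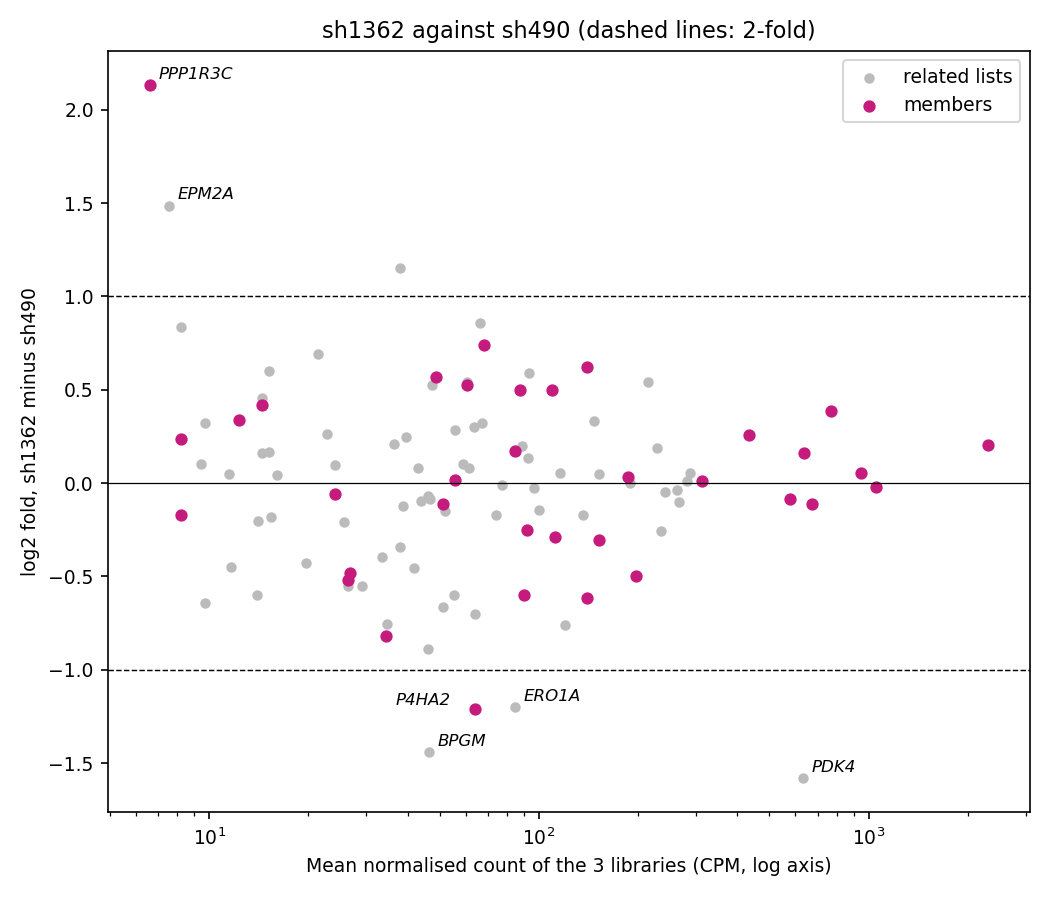
The log2 fold of sh1362 minus sh490 (y) against the mean normalised count of the 3 libraries (x, CPM, log axis) for the 35 members and for 71 genes of the related lists. PPP1R3C at 2.13 and P4HA2 at -1.21 lie beyond the dashed 2-fold lines, as do EPM2A, BPGM, PDK4 and ERO1A among the named related genes.

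Related genes were taken from lists of the same pathways, of which none passed the edgeR test. Of 21 further genes of glycolysis and its transporters 10 were tested, with 0 higher and 0 lower at an adjusted p under 0.05. At an unadjusted p under 0.05, 0 were higher and 2 lower, where 2.27% and 2.08% of all genes were. Among the 8 with a mean of at least 5 CPM, 0 were 2-fold or more above or below shGFP in sh490, where 1.5% and 1.31% of all genes were. In sh1362 0 were above and 3 below, where 3.56% and 5.6% of all genes were. With so few genes, this is a description. ENO2, the neuronal enolase used as a marker of neuroendocrine tumours, had 119.7 and 70.5 CPM in sh490 and sh1362, against 169 CPM in shGFP (edgeR log2 fold -0.85, standard error 0.35, adjusted p 0.986). It stood at 70.9% (64.5 to 77.96) and 41.8% (37.4 to 46.7) of shGFP, so both hairpin libraries were low, sh1362 the more so. Of the 10 neuroendocrine markers summed above, 5 lay above shGFP in sh490 and 9 in sh1362, where 52.8% and 51.1% of all genes did. The lactate transporter SLC16A7 had 50.7 and 31.9 CPM against 70.8 CPM. BPGM, which makes 2,3-bisphosphoglycerate, had 61.4 and 22.5 CPM against 55.2 CPM, and TIGAR, a fructose bisphosphatase induced by p53, had 83.99 and 127 CPM against 69.2 CPM.

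In the list of pyruvate entry into mitochondria 13 of 13 genes were tested and 0 passed. PDK4, the pyruvate dehydrogenase kinase of fasting and fatty acid use (ENSG00000004799.8, chromosome 7, 95583499 to 95596516), had 4795 reads in sh490 and 1492 in sh1362, against 5338 in shGFP. These equal 607 and 203 CPM against 1092 CPM, and 55.6% (53.5 to 57.8) and 18.6% (17.6 to 19.7) of shGFP. PDK4 did not pass (edgeR log2 fold -1.45, standard error 0.54, adjusted p 0.986, unadjusted p 0.0314). Per length PDK4 made up 91.01% of the TPM of the kinase family in sh490, 77.3% in sh1362 and 95.3% in shGFP. PDK1 made up 3.36%, 12.1% and 2.28% in the same libraries. These shares are approximate, since the exonic length was 14883 bases for PDK1 and 4544 bases for PDK4. PDK2 also shared 38.6% of its exonic bases with another gene. PDK2, the phosphatase PDP2 and pyruvate carboxylase, PC, had edgeR log2 folds of 0.47, -0.37 and 0.41.

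Of 8 further regulators of HIF 7 were tested and 0 passed. None of the 6 with a mean of at least 5 CPM was 2-fold apart with either hairpin. Of all genes 1.5% stood 2-fold or more above and 1.31% below shGFP in sh490, and 3.56% and 5.6% in sh1362. With so few genes, this is a description. VHL, which marks HIF alpha for destruction, had 16.2 and 16.7 CPM in sh490 and sh1362, against 15.3 CPM in shGFP, and the coactivator EP300 had 107 and 96.5 CPM against 97.6 CPM. ARNT2 and CITED2 had edgeR log2 folds of 0.09 and -0.22.

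Of 29 further hypoxia-responsive genes 26 were tested and 0 passed. At an unadjusted p under 0.05, 0 were higher and 2 lower, where 2.27% and 2.08% of all genes were. Among the 21 with a mean of at least 5 CPM, 2 stood 2-fold or more below shGFP in sh490, where 1.31% of all genes did, and 4 in sh1362, where 5.6% did. None stood 2-fold above with either hairpin, where 1.5% and 3.56% of all genes did. With so few genes, these counts are given as a description. LOXL2, a collagen cross-linking oxidase, had 64 and 43 reads in sh490 and sh1362, against 102 reads in shGFP (edgeR log2 fold -1.60, standard error 0.43, adjusted p 0.986, unadjusted p 0.00540). The repressor BHLHE40 had 46 and 54 reads against 78 reads (edgeR log2 fold -1.30, standard error 0.44, adjusted p 0.986). Both were lower than shGFP in each hairpin library. ERO1A, an oxidase that forms disulfide bonds in the endoplasmic reticulum, had 95.3 and 41.3 CPM against 118 CPM, and ANGPTL4, a lipoprotein lipase inhibitor, had 9.50 and 5.99 CPM against 13.7 CPM.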

How the data were processed

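RNA sequencing of 3 NCI-H209 libraries gave raw read counts per gene, deposited without normalization. Reads were aligned to GRCh38 with STAR 2.6.1c after FastQC 0.11.8, per the submitters' processing notes, and counted with featureCounts 1.6.0 on GENCODE exons, per the file headers. The recorded command sets no option for strand or multiple overlap, so the defaults held, which add both strands and drop reads that map more than once or touch exons of more than 1 gene. Reads of antisense partners thus cannot be told apart. Symbols matched 60295 of 60609 genes.

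Both YES1 hairpins were 1 group of 2 against shGFP in edgeR 4.0.16 (R 4.3.3) with TMM, filterByExpr and a two-sided quasi-likelihood F test (robust option), which had 1 residual degree of freedom. Adjustment ran over all genes, and a standard error is the log2 fold over the square root of F. Single hairpins were compared by log2 CPM (prior count 2), called at 2-fold, where the mean over libraries reached 5 CPM. Intervals are exact conditional binomial, and cover counting error only, since no molecular identifiers are recorded for the reads. TPM used the tables' exonic lengths, which add the exons of all transcripts. DESeq2 1.42.0, limma 3.58.1, other scalings, priors and filters were tried. The edgeR code was tested on simulated data.

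Every member is accounted for. Of each related list at most 4 genes are named, those with the largest absolute edgeR log2 fold whose mean reached 5 CPM. Some genes of the related and marker lists are not reported here. Members and lists were chosen with earlier results of these data known.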

Additional observations from a re-analysis of the deposited data

How the results depend on the processing

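The 0 calls among members held in every fit run, and the lowest adjusted p of a member over these fits was 0.886, without a filter on low counts. Over all genes limma-voom called 2 lower in place of 4, and edgeR without that filter called 22 higher and 36 lower. Members with folds near 0 changed sign. With total counts PFKL was at 0.0090 and GAPDH at 0.014, without the filter they were at 0.0012 and 0.0095, and limma-voom put PFKP at -0.012, ALDOA at -0.19 and LOX at -0.050. The cause was not tested. With 1.5-fold in place of 2-fold, 3 members were lower in sh490 than in shGFP, where 5.81% of all genes were. In sh1362 2 were higher and 3 lower than in shGFP, where 12.2% and 14.6% of all genes were. Against sh490, 3 were higher and 4 lower in sh1362, where 8.21% and 12.1% of all genes were. With genes from 1 CPM, where more genes enter, 2 of 39 members were higher and 2 lower in sh1362 than in sh490, beside 721 and 872 of all 15342 genes. The 2-fold counts against shGFP were equal under the other scalings, priors, filter and library sizes run, and the medians ran from -0.15 to -0.11 in sh490 and from -0.22 to -0.21 in sh1362. Leaving out either hairpin gives the single-hairpin folds, with no test. No paired analysis was possible because the labels give no replicate numbers and there was 1 library per hairpin. Depth limits the members under 5 CPM, as for LOX, whose counting interval in sh1362 ran from 70.2% to 437% of shGFP.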

Other observations

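Neighbouring pathways gave the following values, also without a gene past the edgeR test. Of 16 glycogen genes 15 were tested. EPM2A, which encodes the glycogen phosphatase laforin, had 38 reads in sh490 and 103 in sh1362, against 19 in shGFP, or 4.81 and 14.03 CPM against 3.89 CPM. The sh1362 library stood apart at 361% (219.7 to 624) of shGFP (edgeR log2 fold 1.25, standard error 0.76, adjusted p 0.986). EPM2A too reached a mean of 5 CPM only through sh1362. The brain-type phosphorylase PYGB had 191 and 278 CPM in sh490 and sh1362 against 175 CPM in shGFP, the liver-type PYGL 18.1 and 11.8 CPM against 12.1 CPM, and PPP1R3F 10.1 and 10.5 CPM against 13.9 CPM.

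All 7 pentose phosphate genes were tested and 0 passed. RPIA, ribose 5-phosphate isomerase, had 54.3 and 98.9 CPM in sh490 and sh1362, against 46.2 CPM in shGFP, RPE 71.6 and 63.6 CPM against 86.96 CPM, and PGLS 5.45 and 9.94 CPM against 9.21 CPM. Of 6 gluconeogenic genes 3 had no read, FBP2, PCK1 and G6PC1. PCK2, the mitochondrial carboxykinase, had 44.97 and 64.8 CPM against 32.5 CPM (edgeR log2 fold 0.73, standard error 0.35, adjusted p 0.986), G6PC3 had 104 and 102 CPM against 84.9 CPM, and FBP1 had 45.7 and 43.6 CPM against 48.7 CPM.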
